A study of Mus musculus with 24 samples.

Results

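The S100 genes encode small calcium-binding proteins, and 10 of them were followed here in mouse mammary gland: S100b, S100g, S100a1, S100a4, S100a6, S100a8, S100a9, S100a10, S100a11 and S100a13. They were found by the gene name that the array files give each probe, which gave 13 probes of 55681, with 2 probes each for S100a1, S100a4 and S100g and 1 for each of the other genes. The set was put together with results of these arrays already known. S100b was chosen by its measured level in the 2 strains and S100g by its measured falls 2 and 4 weeks after irradiation, so those values are given as a description, without support from a test.

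Mammary tissue RNA of female mice was hybridised to 24 single-colour Agilent arrays, 1 for each mouse, in 8 groups of 3 biological replicates named A, B and C. BALB/c mice received 10 cGy of X-rays to the whole body (low-dose ionizing radiation, LDIR) or sham treatment at 8 to 9 weeks of age, and glands were collected 2, 4 or 8 weeks later. SPRET/EiJ mice were treated at the same age and dose, with sham and LDIR groups at 4 weeks only. BALB/c is widely used in the laboratory, while SPRET/EiJ descends from wild Mus spretus, a separate species; both are inbred. Levels are log2 intensities relative to the 75th percentile of the same array, so that a level of 0 is as bright as that percentile and a step of 1 is a doubling. Levels of different probes are not set against each other. The tissue was whole gland. Of the marker genes looked up, 9 of 9 for luminal epithelium, 8 of 8 for white adipocytes and 6 of 6 for fibroblasts were well above background on every array.

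S100 proteins act mostly as dimers. Each subunit has a pair of EF-hand loops. In most members, though not in all, calcium binding there exposes a surface that grips a partner protein, often an annexin, a cytoskeletal protein or a receptor. S100g (calbindin-D9k) is the exception that stays a monomer and works as a calcium buffer and shuttle in calcium-transporting epithelia, where vitamin D and steroid hormones are known to control it. S100b is best known from glia and Schwann cells and is also made by adipocytes. S100a8 and S100a9 form calprotectin, the major calcium-binding protein of neutrophils.

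The sequences of some probes are shown because they say which part of each transcript was read. In the 3 probes below, capitals mark the codons of the second EF-hand loop, found as a pattern of acidic and polar codons in the probe. The loop is complete (12 codons) in the probes of S100a1 and S100a8, and the S100a6 probe starts within it and holds its last 10 codons. The coordinates are mm9: chr3:90315191-90315250 on the minus strand for this S100a1 probe, chr3:90473778-90473837 on the plus strand for S100a8 and chr3:90418160-90418219 on the plus strand for S100a6.
S100a1: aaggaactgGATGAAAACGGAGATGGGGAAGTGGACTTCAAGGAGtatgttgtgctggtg
S100a8: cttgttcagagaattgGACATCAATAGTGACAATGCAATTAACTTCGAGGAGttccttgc
S100a6: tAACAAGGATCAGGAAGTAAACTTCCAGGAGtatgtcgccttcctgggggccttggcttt

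S100a4 was read at 2 places of the transcript, by a coding probe (chr3:90409734-90409793, plus strand) and by one at the 3′ end (chr3:90409908-90409967), shown by 30 of its bases with the polyadenylation signal AATAAA in capitals. The pair of S100g probes (chrX:159399938-159399997 for the brighter, chrX:159399924-159399983 for the dimmer, minus strand) share 46 of their 60 bases, so they are not independent readings of the gene. The first 30 shared bases are shown with the same signal in capitals, next to the first 30 bases of the S100b probe (chr10:75723783-75723842, plus strand).
S100a4 coding: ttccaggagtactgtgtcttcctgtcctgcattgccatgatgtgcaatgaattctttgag
S100a4 end: ctgagcaaattcAATAAAaggttttgaaac
S100g: atacatactgttAATAAAgcaagttcggag
S100b: gaagctggacttgaggctttctaacttgca

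Of the 10 genes, 8 lie on chromosome 3, with S100a1, S100a13, S100a4, S100a6, S100a8 and S100a9 in the S100 cluster and S100a11 and S100a10 farther along. S100b is on chromosome 10 and S100g on the X chromosome. Where a gene has 2 probes, the values below are those of the brighter one over all arrays, with the other given where it differs. All probes of the 9 genes other than S100g were well above background on 24 arrays. The brighter S100g probe was so on 12 and the dimmer on 8, so that in several groups its level is only a bound. The probes follow the mm9 reference, and the SPRET/EiJ sequence under them was not analysed here.

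The 24 arrays lay on 3 slides of 8, and the share of probes well above background ran from 64.7% to 72.7%, apart from 57.2% on SPRET/EiJ LDIR C. On 3 arrays the summed level of 10 lymphocyte markers (Cd3e, Ms4a1 and the like, added after values were seen) was 183 to 242 times the array's 75th percentile, against 6.85 to 15.4 on the other 21. These arrays were BALB/c 8wk sham A, BALB/c 8wk LDIR B and SPRET/EiJ 4wk LDIR A. The 3 arrays also held the 3 lowest levels of S100a1 (1.66, 1.40 and 1.93, in the order named). For several of the differences described below, the value with such an array left out follows.

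S100b, the glial and adipocyte member, was far higher in SPRET/EiJ than in BALB/c. The 3 sham SPRET/EiJ glands read 8.08, 8.91 and 7.10, and the 3 irradiated ones read 6.01, 7.98 and 8.02. No BALB/c gland came near them: the 18 arrays ranged from -1.26 to 1.32, with a median of 0.36. In the sham mice at 4 weeks, the comparison for which S100b was chosen, BALB/c was lower by 8.01 on the log2 scale, a 258-fold difference. In the irradiated mice, which are other animals, BALB/c was lower by 6.51 (SE 0.57), a 90.9-fold difference, also given as a description because the gene was chosen for strain. In whole tissue, fewer cells of a type and less RNA per cell cannot be told apart.

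**Figure D1:**
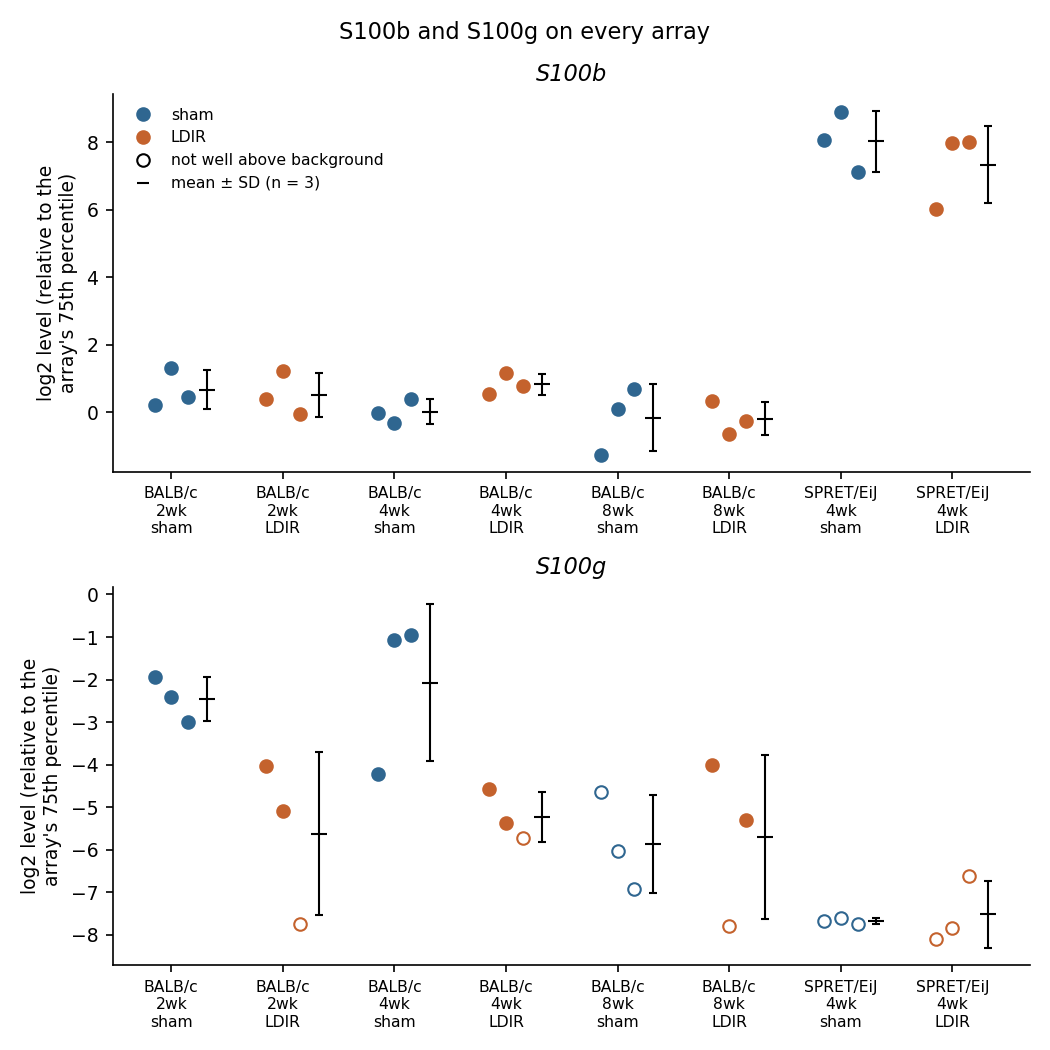
Log2 level of S100b (top) and S100g (bottom, brighter probe) relative to the array's 75th percentile, one point per array in the 8 groups, open where the probe was not well above background, with the mean ± SD (n = 3) beside each group. S100b lies between 6.01 and 8.91 on the 6 SPRET/EiJ arrays and no higher than 1.32 in BALB/c, and S100g is highest in sham BALB/c at 2 and 4 weeks.

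All 6 SPRET/EiJ arrays were on slide 3, together with BALB/c 8wk LDIR B and C, and the 4-week BALB/c arrays were on the other slides. This holds for every strain comparison in this report. Those 2 BALB/c arrays of slide 3 read -0.65 and -0.25 for S100b, within the range of the other BALB/c glands. With all 24 arrays in the fit and slide as a block, the strain differences of S100b were -8.41 (sham) and -7.28 (LDIR). Without SPRET/EiJ LDIR A, an array with high lymphocyte markers, the difference in irradiated mice was -7.17. The summed level of the Schwann cell and glial markers (10 genes, 8 above background on all arrays) overlapped between the strains, at 33.3 to 39.5 in sham BALB/c and 36.3 to 46.4 in sham SPRET/EiJ at 4 weeks. Of these 10 genes, 1 was called, beside 8.86% of all probes: the myelin gene Mbp, with -1.44 by its brightest probe and no call by its other probes. The white adipocyte sums overlapped as well, with 1791 to 2302 in BALB/c and 1601 to 1958 in SPRET/EiJ, although Plin1, which coats lipid droplets, was higher in BALB/c by 3.86.

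Among the BALB/c groups, mean S100b was 0.83 ± 0.31 (SD, n = 3) in LDIR at 4 weeks, 0.67 ± 0.58 in sham and 0.52 ± 0.65 in LDIR at 2 weeks, 0.02 ± 0.36 in sham at 4 weeks, and -0.16 ± 1.00 in sham and -0.19 ± 0.49 in LDIR at 8 weeks. Neighbours in this order differed by less than their spread. At 4 weeks in BALB/c, the sham glands read -0.03, -0.31 and 0.40 and the irradiated glands 0.55, 1.15 and 0.79, without overlap. The 3 sham arrays are also those of the strain comparison for which S100b was chosen, so this comparison is a description too. The difference of 0.81 (SE 0.26, 1.75-fold) passed the threshold for LDIR comparisons, an unadjusted p under 0.05 with more than 1.5-fold in limma, but not adjustment (adjusted p = 0.780). It was lost without sham B (0.64) and without LDIR B (0.65). On slide 2, which holds 1 sham and 3 irradiated arrays of that time, the difference was 0.43, and with slide as a block it did not pass (limma adjusted p = 1). Of the 10 Schwann cell and glial markers 8 were higher after LDIR in this comparison (median 0.44), and 1 was called, beside 4.83% of all probes. Their sums were 35.3 to 47.5 against 33.3 to 39.5, and their part in the S100b difference was not tested. In SPRET/EiJ, S100b differed after LDIR by -0.70 (SE 0.68, limma adjusted p = 0.972), and by -0.03 without LDIR A. The difference between the strains in this change, the interaction, was not called (limma adjusted p = 0.957). Both use sham arrays of the strain comparison that chose S100b, so they are descriptions as well.

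The 5 genes whose pattern over the 24 arrays was most like that of S100b were found among 29160 coding probes above background on at least 12 arrays. They include 1810037I17Rik (Pearson r = 0.992) and Pam, which encodes an enzyme that amidates peptides (r = 0.983). The other three carry probe or clone names, with r of 0.982 to 0.986. The arrays fall into 2 strains, so these values describe the strain contrast.

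S100g, the epithelial calcium buffer, fell after LDIR at both early times in BALB/c. At 2 weeks the sham glands read -1.95, -2.41 and -2.99 and the irradiated glands -4.02, -5.09 and -7.75, the last of them not well above background. At 4 weeks the sham glands read -4.21, -1.06 and -0.96 and the irradiated glands -4.58, -5.36 and -5.73, again with the last not well above background. The groups did not overlap at either time, although sham A at 4 weeks lay close to the irradiated range. S100g was 3.17 lower (SE 0.92, 9.01-fold) at 2 weeks and 3.15 lower (SE 0.89, 8.85-fold) at 4 weeks. These are the differences for which it was chosen. With normexp background correction they were smaller, -0.88 and -1.35. The dimmer probe differed by -2.51 at 2 weeks. At 4 weeks it was above background on 2 sham arrays and no irradiated array, and there it was at least 12.2-fold lower after LDIR, set against the lowest signal that counts as above background or its own signal if higher.

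S100g was not called at 8 weeks, a time that was not used in the choice. The sham glands read -4.64, -6.04 and -6.92, none of them well above background, and the irradiated glands -4.00, -7.79 and -5.30, with 2 of 3 above. The difference was 0.17 (SE 1.08, limma adjusted p = 1) and took either sign as single arrays were left out. Without the 2 arrays with high lymphocyte markers, LDIR was higher by 1.83, which was called but did not pass adjustment (limma adjusted p = 0.968). Both sham arrays left are not well above background, so that the size is uncertain. In SPRET/EiJ all 6 arrays were below background for S100g, at -8.11 to -6.62, so no change could be measured there.

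The order of S100g group means ran from sham at 4 weeks (-2.08 ± 1.85, SD, n = 3) and sham at 2 weeks (-2.45 ± 0.52) to LDIR at 4 weeks (-5.22 ± 0.58), LDIR at 2 weeks (-5.62 ± 1.92), LDIR at 8 weeks (-5.70 ± 1.93) and sham at 8 weeks (-5.87 ± 1.15). The means of the first pair differed by less than their spread, and so did those of neighbours among the other four. In sham BALB/c, S100g at 8 weeks was at least 13.8-fold lower than at 4 weeks. Sham BALB/c exceeded sham SPRET/EiJ at 4 weeks by at least 21.3-fold (measured means -2.08 and -7.68). That bound holds for the main processing only. S100g was called here, and the call was lost with normexp, quantile normalization, and all 24 arrays with slide as a block. The SPRET/EiJ sequence under the probes was not analysed. Of 9 luminal epithelium markers 8 were higher in BALB/c in the same comparison (median 1.79), and 0 were called, beside 8.86% of all probes. Their sums were 154 to 306 against 28.1 to 135, and their part in the S100g difference was not tested. In the irradiated groups at 4 weeks BALB/c exceeded SPRET/EiJ by at least 2.75-fold (measured difference 2.30), a difference that turned to -0.25 with all 24 arrays and slide as a block. These 3 comparisons share arrays with those that chose the gene and are descriptions too.

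Of 11 genes of calcium transport and of the hormone response that S100g belongs to, 1 was called at 2 weeks, 0 at 4 weeks and 1 at 8 weeks after LDIR in BALB/c, beside 3.11%, 4.83% and 1.81% of all probes, with medians of -0.19, -0.12 and -0.48 beside medians of 0.00, 0.02 and -0.14 over all probes. The gene at 2 weeks was Esr1, the oestrogen receptor, which fell by 0.68 by its brightest probe (limma adjusted p = 0.893) and was not called by the other probes (-0.41 to 0.15). The gene at 8 weeks was Areg, a growth factor induced by oestrogen in mammary epithelium, which fell by 2.23 (limma adjusted p = 1). Trpv6, the calcium entry channel that S100g serves in intestine, differed by -0.35 (limma adjusted p = 0.893) at 2 weeks. Between 4 and 8 weeks in sham BALB/c, 2 of 11 were called, beside 13.8% of all probes: Esr1 fell by 1.39 (by its brightest probe) and Areg fell by 2.51. The 9 luminal epithelium markers had 0 called after LDIR in BALB/c at 2, 4 or 8 weeks. The genes most alike S100g over 24 arrays were Tspan8, a membrane tetraspanin (Pearson r = 0.826), the clone BX521359 (r = 0.821), the histone deacetylase Hdac4 (r = 0.817), Tox2 (r = 0.812) and the cell adhesion gene Lsamp (r = 0.812).

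Apart from S100b and S100g, 0 of 8 members were called between sham strains by limma, at an unadjusted p under 0.001 and more than 1.5-fold, where 8.86% of all probes were called. At an unadjusted p under 0.05 there were 3 of 8 (S100a4, S100a8 and S100a11), beside 31.9% of all probes. Between irradiated strains 0 of the same 8 were called by limma, where 5.68% of all probes were called, and 2 of 8 (S100a4 and S100a8) had an unadjusted p under 0.05, beside 25.1% of all probes. The members' median difference was -0.43 (sham) and -0.47 (LDIR), beside -0.06 and -0.05 over all probes. S100a1, S100a10 and S100a13 differed by less than 0.35 in either comparison, although without SPRET/EiJ LDIR A the differences of S100a1 and S100a10 between irradiated strains were -0.49 and -0.68.

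**Figure D2:**
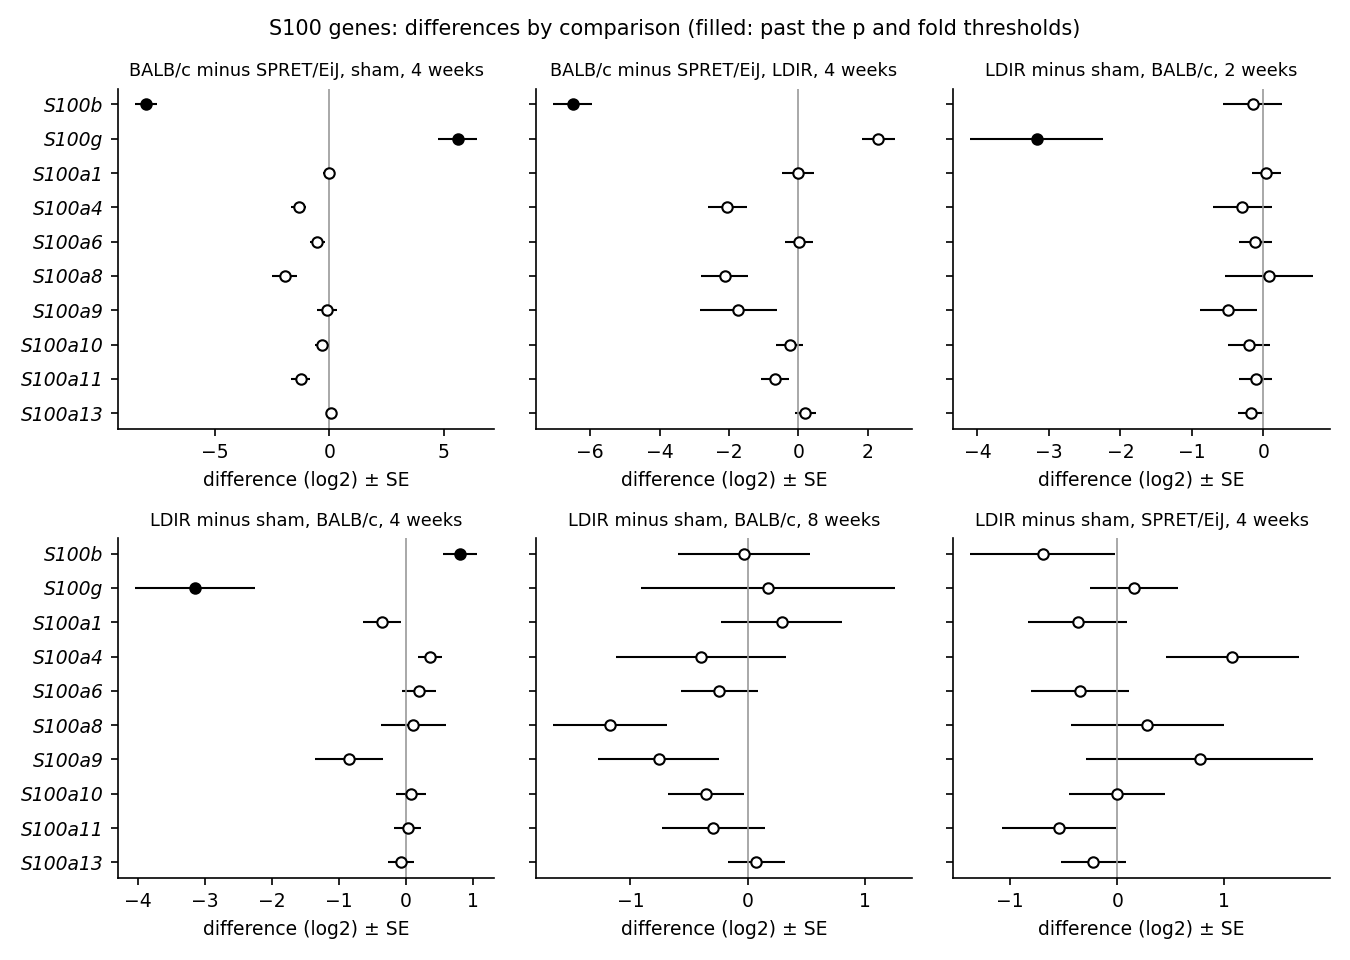
Difference of each S100 gene (brighter probe) in 6 comparisons, in log2 units with its standard error from limma, each panel on its own axis. Filled points are past the p and fold thresholds. Those of S100b between strains and of S100g are values that chose the genes or share arrays with them. That of S100b at 4 weeks after LDIR in BALB/c shares its sham arrays with the strain comparison that chose the gene.

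S100a4, known for binding non-muscle myosin and for its expression in motile and immune cells, was higher in SPRET/EiJ. In sham mice at 4 weeks BALB/c read 2.36, 2.74 and 2.42 and SPRET/EiJ 3.54, 4.56 and 3.43, without overlap. The difference of -1.34 (SE 0.33, 2.52-fold) missed the strain threshold of 0.001 in limma and passed adjustment (adjusted p = 0.0383), as 18.7% of all probes did. It passed adjustment without SPRET/EiJ sham B or C, and not without any 1 of the other 4 arrays (limma adjusted p 0.0632 to 0.118). With all 24 arrays and slide as a block it was -0.68. The coding probe also passed (limma adjusted p = 0.0212). All 6 macrophage markers were lower in BALB/c in this comparison, with a median of -0.78. Of them 0 were called, beside 8.86% of all probes, and 2 passed adjustment. Their sums were 42.9 to 69.6 against 86.4 to 104, and their part in the S100a4 difference was not tested. In irradiated mice BALB/c read 2.93, 2.71 and 2.94 and SPRET/EiJ 6.15, 3.82 and 4.79, a difference of -2.06 (limma adjusted p = 0.0658), where 11.1% of all probes passed. Without SPRET/EiJ LDIR A it was -1.44 (limma adjusted p = 0.0368). Between irradiated strains, with all arrays kept, 4 of the 6 macrophage markers were lower and 2 higher in BALB/c (median -0.36), and 0 passed adjustment.

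The 3 arrays with high lymphocyte markers held the highest S100a4 of their strain. The 2 BALB/c arrays read 4.01 (8wk sham A) and 3.64 (8wk LDIR B), above the range of 1.61 to 3.22 on the other 16. The SPRET/EiJ array read 6.15, above 3.43 to 4.79 on the other 5. After LDIR in SPRET/EiJ, S100a4 was higher by 1.08 (SE 0.62, limma adjusted p = 0.972), and by 0.46 (adjusted p = 1) without that array. The part of lymphoid cells in these values was not tested.

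**Figure D3:**
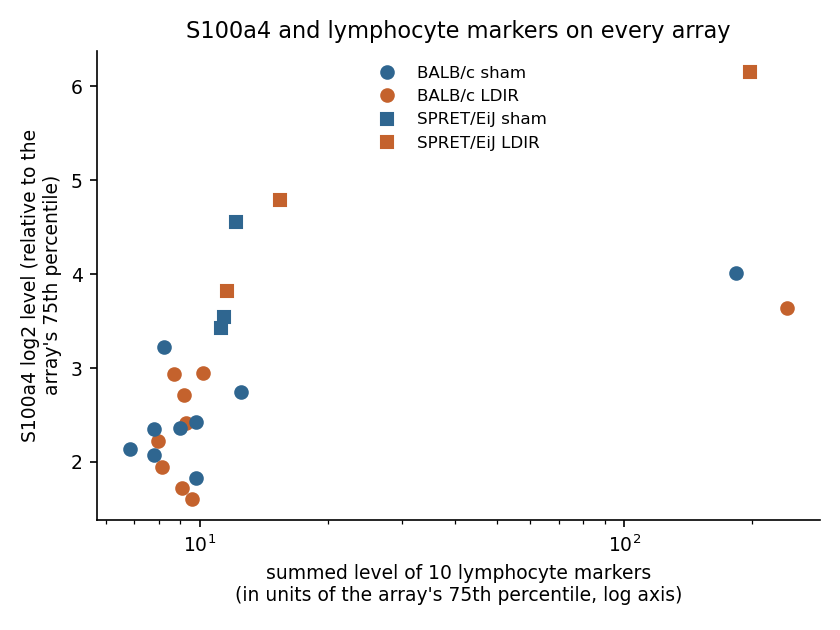
Log2 level of S100a4 against the summed level of 10 lymphocyte markers (log axis), one point per array, circles for BALB/c and squares for SPRET/EiJ, blue for sham and orange for LDIR. The 3 arrays at the right, between 183 and 242, hold the highest S100a4 of their strain, and SPRET/EiJ lies above BALB/c among the other 21.

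S100a8 and S100a9, the calprotectin subunits, rose and fell together over the BALB/c glands (Pearson r = 0.717, Spearman rho = 0.647 over 18 arrays, permutation p = 0.00048 and 0.0048, adjusted over 3 pairs 0.00072 and 0.0059). Without the 2 arrays farthest from the median of S100a8 r was 0.613. Within slides of 8 BALB/c arrays it was 0.478 on slide 1 and 0.935 on slide 2. The permutations took no account of group or slide. S100a8 was lower in BALB/c in both comparisons without overlap: -0.96, -2.37 and -1.89 against -0.38, 1.27 and -0.26 in sham mice, a difference of -1.95 (SE 0.55, limma adjusted p = 0.0576). In irradiated mice the difference was -2.12 (SE 0.67, limma adjusted p = 0.101), and -1.49 (adjusted p = 0.130) without SPRET/EiJ LDIR A. There S100a9 differed by -1.73, and by -0.49 without that array. S100a9 differed by -0.10 (SE 0.42, limma adjusted p = 0.888) in sham mice and its groups overlapped. Whether the subunits differ from each other was not tested. Of 12 neutrophil markers, 1 was called higher and 1 lower in sham BALB/c (Mmp9 by 3.02 and Mpo by -6.81), beside 8.86% of all probes. Their summed levels were 162 to 207 against 170 to 187.

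After LDIR neither subunit was called at any time in BALB/c or in SPRET/EiJ. The nearest was S100a8 at 8 weeks, with 0.40, -0.62 and -0.79 in sham and -0.75, -1.74 and -2.04 in irradiated glands. The difference of -1.18 (SE 0.48, limma adjusted p = 1) lay at the threshold and fell on either side of it under other settings. It was -0.42 on slide 2, and -0.69 (limma adjusted p = 0.968) without the 2 arrays with high lymphocyte markers. Of 12 neutrophil markers 2 were called in the same comparison, Retnlg (-0.66) and Mmp8 (at least 3.60-fold) lower, beside 1.81% of all probes. Of the 12, 8 were lower and 4 higher, and their summed level was 113 to 146 in sham and 132 to 136 in irradiated glands. Their part in the S100a8 difference was not tested.

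**Figure D4:**
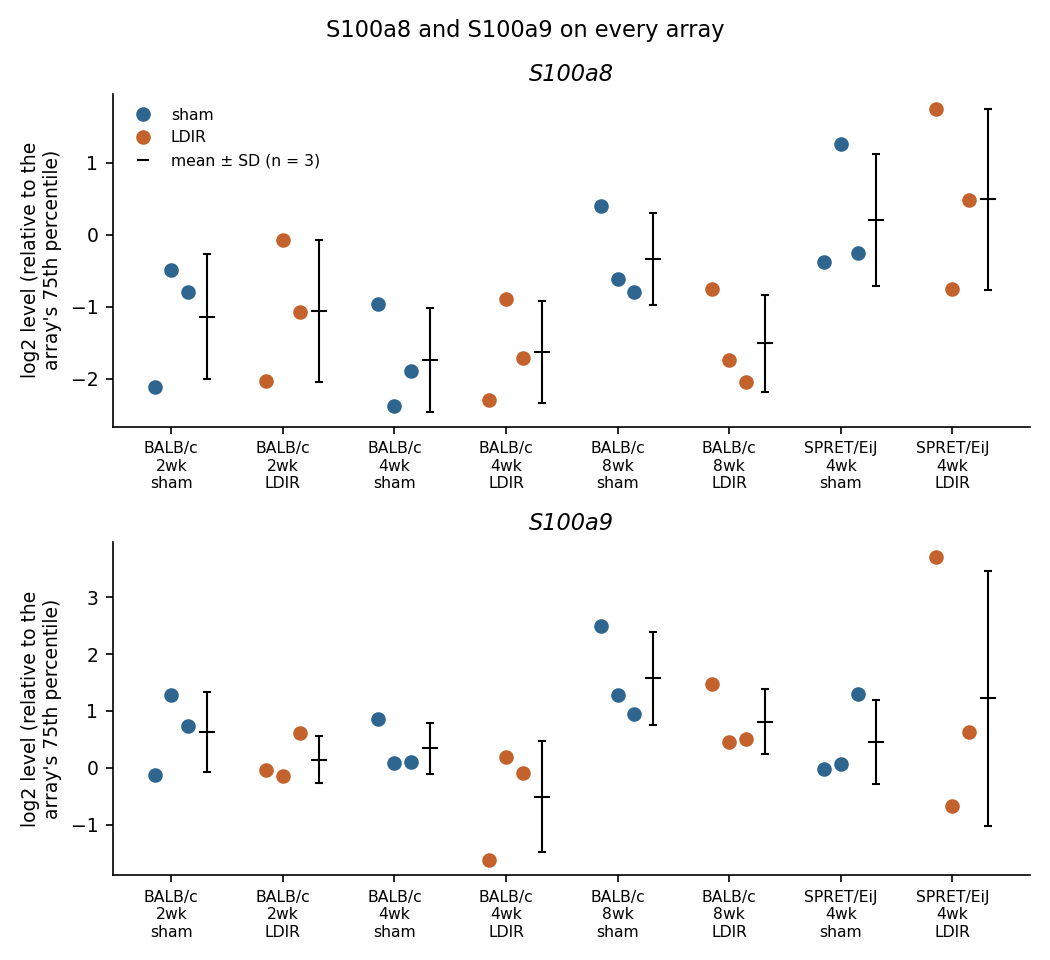
Log2 level of S100a8 (top) and S100a9 (bottom) relative to the array's 75th percentile, one point per array in the 8 groups, with the mean ± SD (n = 3) beside each. Sham BALB/c at 8 weeks lies above sham BALB/c at 4 weeks for both genes, and the highest S100a9, 3.70, is on SPRET/EiJ LDIR A.

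In sham BALB/c, 4 of 9 members other than S100g were called between 4 and 8 weeks, where 13.8% of all probes were called and 0 passed adjustment (limma, 7900 at an unadjusted p under 0.05). S100a8 rose by 1.41 (SE 0.49, limma adjusted p = 0.292) and S100a9 rose by 1.23 (SE 0.48, limma adjusted p = 0.332). Both calls were lost without 8wk sham A, the array with high lymphocyte markers (1.04 and 0.77), without 4wk sham B (1.09 for each gene) and without 4wk sham C. That of S100a9 was lost without 8wk sham B as well (1.37). Retnlg (2.16) and Mmp8 (at least 4.21-fold), made by neutrophils, were called higher, and Csf3r, the receptor for their growth factor, lower (-0.84), while the summed neutrophil markers went from 162 to 207 at 4 weeks to 113 to 146 at 8 weeks. With slide as a block neither S100 call held (1.56 and 1.48).

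S100a1 and S100a13 fell over the same interval. S100a13, which helps to export Fgf1 from cells, read 3.96, 4.14 and 3.74 at 4 weeks and 2.99, 3.08 and 3.08 at 8 weeks. It fell by 0.90 (SE 0.22, limma adjusted p = 0.180). S100a1, a calcium sensor best known from muscle, read 3.41, 3.43 and 2.90 and then 1.66, 2.31 and 2.43, and fell by 1.11 (SE 0.31, limma adjusted p = 0.214). Its coding probe fell by 0.96. Leaving out any single array kept both calls. Without 8wk sham A, an array with high lymphocyte markers, S100a1 fell by 0.87. Of the 4-week sham arrays only C shared slide 2 with the 8-week ones, and on that slide the differences were -0.69 and -0.76. With slide as a block neither passed (limma adjusted p = 0.836 for S100a13 and 0.852 for S100a1). The tissue moved at the same time: 6 of 8 white adipocyte markers were called lower, among them Adipoq by 0.93, where 13.8% of all probes were called. Of the 8, 7 were lower, and the summed level of the 8 went from 1791 to 2302 at 4 weeks to 808 to 1177 at 8 weeks. All 6 skeletal muscle markers were higher, from 1.47 to 26.2 at 4 weeks to 36.5 to 146 at 8 weeks in summed level. The part of these tissues in the S100 values was not tested.

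The irradiated BALB/c mice gave a second reading of this interval, added after the sham values were seen. S100a13 went from 3.60, 3.96 and 4.05 to 3.22, 2.81 and 3.34 and fell by 0.75 (SE 0.23, limma adjusted p = 0.134), again without overlap, where 22% of all probes were called and the median over all probes was -0.25. The call was lost without 4wk LDIR B (-0.70) and without 4wk LDIR C (-0.66). S100a1 differed by -0.46 (limma adjusted p = 0.580), and by 0.05 without 8wk LDIR B. Of 9 members other than S100g, 4 were called: S100b fell by 1.02, S100a6 fell by 0.83, S100a13 fell as above and S100a9 rose by 1.32. None of these 4 calls held each time a single array was left out: those of S100b and S100a13 were lost without 4wk LDIR B, and those of S100a6 and S100a9 without 4wk LDIR A. Without 8wk LDIR B, an array with high lymphocyte markers, the calls of S100a6 (-0.55) and S100a9 were lost and S100a4 was called (-1.03, limma adjusted p = 0.0606). The difference of S100b was then -0.79 and that of S100a13 was -0.59. The 4-week irradiated arrays were all on slide 2, while 8wk LDIR B and C were on slide 3. On slide 2, 8wk LDIR A was the only irradiated array from 8 weeks. There S100a13 differed by -0.65, S100b by -0.50, S100a6 by -0.63 and S100a9 by 1.98. With slide as a block fewer members were called, so slide and time are not well separated here. Between 2 and 4 weeks in sham BALB/c 0 of 9 were called by limma, and 0 had an unadjusted p under 0.05, where 3.04% of all probes were called.

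**Figure D5:**
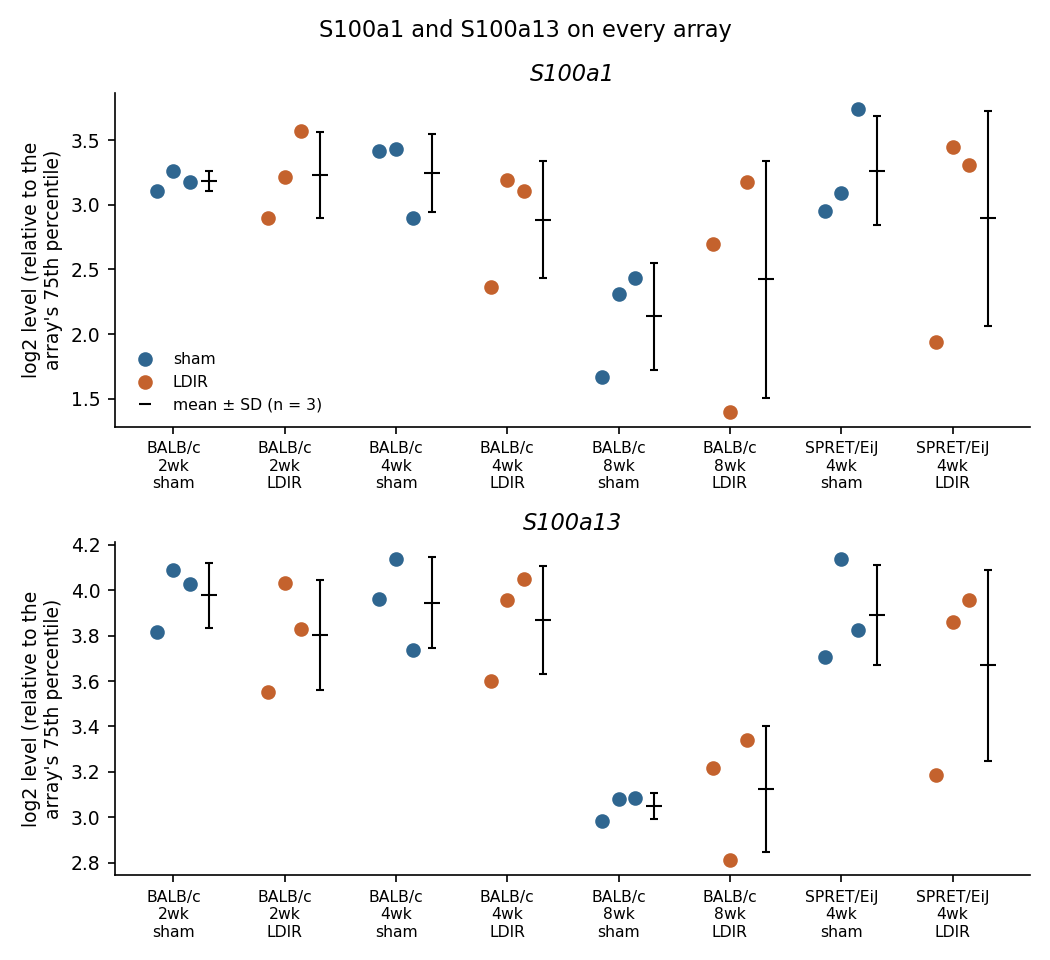
Log2 level of S100a1 (top) and S100a13 (bottom) relative to the array's 75th percentile, one point per array in the 8 groups, with the mean ± SD (n = 3) beside each. S100a13 is at 3.74 or above in sham BALB/c at 4 weeks and at 3.08 or below at 8 weeks, and the lowest S100a1 is on BALB/c LDIR B and sham A at 8 weeks and SPRET/EiJ LDIR A.

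S100a1 and S100a13 start next to each other on opposite strands of chromosome 3. Their RefSeq starts (GRCm38.p6) leave 104 bases between them, chr3:90514331-90514434, shown on the plus strand because it lies between the starts of both genes that fell in the sham mice.
S100a13 and S100a1: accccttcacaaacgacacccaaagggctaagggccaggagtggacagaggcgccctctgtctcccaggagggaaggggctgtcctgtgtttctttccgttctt
On either strand, it held no GC box (GGGCGG), no CCAAT box (CCAAT) and no TATA box (TATAAA). Of all 32851 promoter entries, 25.1%, 19.4% and 5.69% hold these letters in the 104 bases before the start. Of the 10 members, 9 had an entry, all but S100a10.

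S100a10 and S100a11 bind annexins, and their levels were correlated with those of their partners over the 18 BALB/c arrays. S100a10 with Anxa2, with which it forms a tetramer at membranes, gave Pearson r = 0.696 and Spearman rho = 0.631 (permutation p = 0.00108 and 0.0059, adjusted 0.00108 and 0.0059). S100a11 with Anxa1 gave r = 0.783 and rho = 0.705 (permutation p = 0.00032 and 0.00156, adjusted 0.00072 and 0.00468). Without the 2 arrays farthest from the median of the S100 gene, r was 0.477 for S100a10 and 0.522 for S100a11. Within slides 1 and 2 it was 0.325 and 0.858 for S100a10 and 0.615 and 0.746 for S100a11. The 2 arrays left out for S100a11 were BALB/c 8wk LDIR B (2.97) and 8wk sham A (3.21), both with high lymphocyte markers. These 3 pairs were the only relations computed. Their permutations shuffled all 18 arrays without regard to group or slide, so differences between groups and slides enter the p-values.

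S100a10, S100a11 and S100a6 were not called after LDIR. Over the 24 arrays S100a10 ranged from 3.72 to 5.36, S100a11 from 2.97 to 5.90 and S100a6, the calcyclin of fibroblasts and epithelia, from 5.39 to 7.79. Their differences after LDIR in the 4 comparisons lay between -0.54 (SE 0.53), for S100a11 in SPRET/EiJ, and 0.19. Without SPRET/EiJ LDIR A that of S100a11 was -0.11 and that of S100a10 in SPRET/EiJ went from 0.00 to 0.42. At 8 weeks in BALB/c without sham A, S100a10 went from -0.36 to -0.62 and S100a11 from -0.29 to -0.63, below the range above. Between sham strains S100a11 read 3.80, 3.98 and 3.49 in BALB/c and 4.73, 5.90 and 4.37 in SPRET/EiJ, without overlap, a difference of -1.25 (SE 0.41, limma adjusted p = 0.0876). In irradiated mice the groups overlapped (-0.68, limma adjusted p = 0.357) through SPRET/EiJ LDIR A, which read 3.58 against 4.98 and 4.80 on the other two. Without that array the difference was -1.12 (limma adjusted p = 0.0191).

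After LDIR the count of called members other than S100g was 0 of 9 at 2 weeks and 1 of 9 at 4 weeks (S100b) in BALB/c. It was 0 of 10 at 8 weeks in BALB/c and 0 of 10 in SPRET/EiJ. The S100b call shares its sham arrays with the strain comparison that chose the gene and is a description. Of all probes, 3.11%, 4.83%, 1.81% and 2.2% were called in these comparisons, and 0 passed adjustment in any. At an unadjusted p under 0.05, limma gave 2778, 3419, 1037 and 1233 probes. In the strain by LDIR interaction 0 of 9 were called, beside 3.55% of all probes. S100b is among the members counted in SPRET/EiJ and in the interaction, where its sham arrays are also those that chose it.

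Of the 14 receptors and partners of S100 proteins looked up, the same 2 were called between the strains in sham and in irradiated mice, where 8.86% and 5.68% of all probes were called. Tlr4, the receptor through which calprotectin signals, was higher in BALB/c by 1.74 (limma adjusted p = 0.00348) and 1.88 (adjusted p = 0.00639). Anxa11, a partner of S100a6, was lower in BALB/c by 2.61 (limma adjusted p = 0.000687) and 2.25 (adjusted p = 0.00316). After LDIR 0 of 14 were called in any of the 4 comparisons, where the share of all probes called ran from 1.81% to 4.83%. With shares this low, a count of 0 of 14 says little about this list. Of 6 further S100 genes, S100a5, a neighbour of S100a4 and S100a6, was the 1 called between sham strains, lower in BALB/c by 2.75 (limma adjusted p = 0.0039), beside the same 8.86%, and 0 were called between irradiated strains. The strains lay on different slides at 4 weeks, and slide was not modelled for Tlr4, Anxa11 or S100a5.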

How the data were processed

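The authors deposited Agilent Feature Extraction 10.10.1.1 files whose intensity values are background-subtracted. The authors also deposited log2 values normalized to the 75th percentile, used as an alternative. Here outlier spots (3777) were left out, intensities were put on the log2 scale minus the array's 75th percentile, and spots of a probe were averaged. Each comparison was fitted on its own 6 arrays (12 for the interaction) by limma 3.58.1, under R 4.3.3, with Benjamini-Hochberg adjustment over all probes; relations used scipy 1.17.1 with 100000 resamples. A probe was called at the thresholds of the methods (unadjusted p under 0.001 between strains, under 0.05 otherwise, and more than 1.5-fold). The procedure was tested on simulated data. Genes named are the members by all probes, list genes that were called or that a count rests on, and the 5 genes most like S100b and S100g; others were chosen after their values were seen. Members and lists were chosen with earlier results of these data known. Lists not described above (epidermal fused S100, keratinocyte, cartilage, basal epithelium) are given in the closing section, with more values of the macrophage list. The letters A to C recur in every group. Only for the 2-week LDIR comparison did all same-letter deviations from the group means correlate above 0.1 (0.141, 0.442 and 0.102). The labels do not say that mice of the same letter were matched, and the reported differences come from unpaired fits. The number of arrays, 3 in a group, limits precision. Some genes of the marker lists are not reported here by name.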

Additional observations from a re-analysis of the deposited data

Results flagged for a closer look

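The change of S100g after LDIR at 4 weeks was compared between the strains: that in BALB/c minus that in SPRET/EiJ was -3.31 on the log2 scale (SE 1.05, limma adjusted p = 0.957). It stands out because the interaction had an unadjusted p under 0.05, but it did not pass adjustment over all probes. The BALB/c change is one for which the gene was chosen, and S100g was below background on all SPRET/EiJ arrays, where a fall could not be measured.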

How the results depend on the processing

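Of 173 alternative counts of called members, 127 stayed within 1.5 times the reported count. Of 418 alternative values of single differences, 359 kept direction and side of the threshold, and the 12 alternatives of the 3 relations kept both. The 418 include values of the S100b and S100g differences for which the genes were chosen, so the total gives those differences no support. Between sham strains the count of 1 (S100g) became 0 with normexp, quantile normalization, the methods' t-test, the replicate block, all 24 arrays with slide as a block, and the mean of a gene's probes, and lay between 0 and 1 as single arrays were left out. Between irradiated strains the count of 1 (S100b, which was chosen for strain) became 2 with quantile normalization and lay between 1 and 2 with 1 array left out. S100g turned to -0.25 with all 24 arrays and slide as a block. After LDIR the count at 2 weeks was 0 to 1 with 1 array left out (S100a9 without sham A). At 4 weeks the count of 1 became 0 with slide as a block, with all 24 arrays, and with both, and lay between 0 and 1 with 1 array left out. At 8 weeks the count of 0 became 1 (S100a8) with normexp, quantile normalization, the authors' log2 values, detected probes only and the replicate block, and 1 (S100g) without the 2 arrays with high lymphocyte markers, and lay between 0 and 1 with 1 array left out. It lay between 0 and 1 in SPRET/EiJ (S100a4 without LDIR B) and between 0 and 2 in the interaction (S100b and S100a9 without SPRET/EiJ LDIR B). Between 2 and 4 weeks in sham mice it became 1 (S100b) with normexp. Between 4 and 8 weeks in sham mice the count of 4 became 2 with the methods' t-test, 0 with slide as a block and 1 (S100a13) with all 24 arrays and slide, and lay between 2 and 4 with 1 array left out. In irradiated mice the count of 4 became 2 with quantile normalization, the methods' t-test and all 24 arrays, 1 with slide as a block and 0 with all 24 arrays and slide, and lay between 1 and 3 with 1 array left out; the S100a1 difference lay between -0.84 and 0.050 with 1 array left out, and turned without 8wk LDIR B. The S100g change at 8 weeks was -0.076 with normexp, 1.83 without the 2 arrays, and -0.68 to 1.22 with 1 array left out. In SPRET/EiJ it was -0.0086 with quantile normalization and -0.29 to 0.45 with 1 array left out. The replicate block treats arrays of the same letter as matched, which the labels do not state. With it the count at 2 weeks stayed 0. At 8 weeks the correlations of same-letter arrays were -0.560, -0.567 and 0.544. The slide block, the 2 arrays left out and the irradiated 8 against 4 weeks comparison include choices made after seeing the data. The cause of these changes was not tested. Signal near background limits S100g.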

Other observations

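Of the lists that the report does not describe, the 6 fused S100 genes of the epidermis (Flg, Hrnr, Tchh and others) had 0 called between the strains and 1 called after LDIR in BALB/c at 8 weeks, Tchh, which was 1.14 lower. Of 6 basal epithelium markers, Acta2, the smooth muscle actin of myoepithelium, was the 1 called between the strains, higher in BALB/c by 3.69 in sham and 3.70 in irradiated mice. Of the same 6, the keratins Krt5 (-0.72) and Krt14 (-0.92) were called lower after LDIR in BALB/c at 4 weeks. Of the 6 macrophage markers, also described with S100a4, 3 were called higher there (Cd68 by 0.82, Mrc1 by 0.77 and Emr1 by 0.73). In that comparison 4.83% of all probes were called. Slide 2 held 1 sham and 3 irradiated arrays of it, and slide was not modelled for these macrophage and keratin genes. Of 6 keratinocyte markers, Sbsn was the 1 called between sham strains, higher in BALB/c by 4.71, and of 6 cartilage markers 0 were called there. Of all probes, 8.86% were called between sham strains, 5.68% between irradiated strains and 1.81% after LDIR in BALB/c at 8 weeks. None of the LDIR calls passed adjustment over all probes (limma).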
